A study of Homo sapiens with 6 samples.

Results

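The enzymes of serine synthesis and of the folate one-carbon pathway were examined in A375, a human melanoma cell line in wide use. They are the 9 genes PHGDH, PSAT1, PSPH, SHMT1, SHMT2, MTHFD1, MTHFD2, MTHFD1L and ALDH1L2, which were chosen by name and were all found once among the 28395 genes measured. The study compared wild-type A375 cells kept for 6 h in 0.01% ozonated olive oil (OZO) with cells kept as long in 0.01% unmodified olive oil (OLO), which served as the control, and RNA-seq was run on 3 libraries of each group. All 6 libraries came from this single line, and the study describes the libraries of a group as independent experiments. The one measurement used for each gene is the authors' mean over all 6 libraries, so every level given here pools OLO and OZO. The size of a difference between OZO and OLO, the values of single libraries and the spread between libraries were not analysed here.

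Serine is made in the cytosol from a glycolytic intermediate in a chain of reactions catalysed by PHGDH, PSAT1 and PSPH. The SHMT enzymes then pass a carbon from serine to tetrahydrofolate, which yields glycine, and the MTHFD enzymes convert the carrier between its redox states and release or capture formate. These steps run in parallel in the mitochondria and in the cytosol, and the products serve purine, thymidylate and methionine synthesis as well as the supply of NADPH. The pathway is known for supporting the growth of proliferating cells, and melanoma lines are among those in which extra copies of PHGDH have been described.

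The low values of the table put the size of a library at 18409903 fragments counted in genes, as a geometric mean. Of all genes, 13773 had an implied mean of at least 10 reads per library and 7012 had no read in any library. Of 8 melanocyte and melanoma markers, 5 had at least 10 reads, among them SOX10 with 919 and MITF with 499, the transcription factors of this lineage. The pigment genes PMEL and DCT had 5.75 and 4.74 reads, and TYR, which encodes tyrosinase, had no read in any library. In 1 library of the mean size, 3 reads correspond to 0.163 CPM, the counts of a gene per 1e6 counted fragments. The limit for a gene with no read in all 6 libraries is lower. Of the markers of other cell types, KRT10 and KRT14 of keratinocytes had 469 and 77.5 reads, COL1A1 of fibroblasts had 22.3 and PECAM1 of endothelium had 19.5, whereas both leukocyte markers had at most 1.07. The remaining markers of these types were low, with 1.56 reads for KRT5, 0.981 for COL3A1, 5.12 for DCN and 0.100 for CDH5. In all, 4 of the 10 markers of other cell types had at least 10 reads. The keratinocyte, fibroblast and endothelial markers each split across this limit, whereas the leukocyte markers were both below it. The part of these markers in the levels below was not tested.

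All 9 enzymes were well read, from an implied mean of 852 reads per library for SHMT1 to 10729 for MTHFD2. Levels were compared between genes as CPM per kilobase of annotated exons, since a long gene collects more reads than a short one at the same number of transcripts. PSAT1 had the highest level at 194 CPM per kilobase, followed by MTHFD2 at 50.9 and SHMT2 at 40.7. With the longest coding length as the length, MTHFD2 was the highest at 555 and PSAT1 followed at 385. The coding length leaves out untranslated exons, while reads in them may have been counted. For MTHFD2 it is 1050 bases, against 4403 for the canonical transcript. Over all annotated exons ALDH1L2 had the lowest level at 5.50, so the levels of the 9 enzymes spanned 35.3-fold. Among the 13313 genes with at least 10 reads and a known length, the median level was 4.46 CPM per kilobase, and each of the 9 enzymes lay above it. ALDH1L2 lay near it, at percentile 49.0 with the canonical transcript and 49.97 with the longest transcript as the length, where the other 8 enzymes stayed above it. The median percentile of the 9 enzymes among those genes was 80.7.

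**Figure D1:**
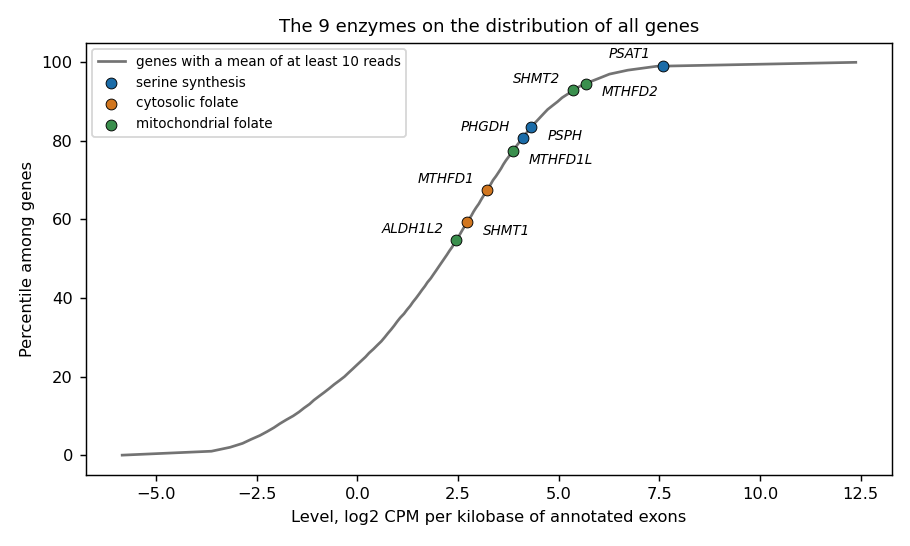
The grey line plots the percentile (vertical axis) of the level, in log2 CPM per kilobase of annotated exons (horizontal axis), for 13313 genes (at least 10 mean reads, length known). Points are the 9 enzymes, coloured by role, and they run from percentile 54.7 for ALDH1L2 to 99.1 for PSAT1.

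The 3 enzymes of serine synthesis did not have equal transcript levels. PHGDH (chromosome 1, 119648411 to 119744218, forward strand, hg38), the dehydrogenase that opens the chain, had a mean of 7.31 log2 CPM, which corresponds to 2923 reads per library. Its level was 17.3 CPM per kilobase, at percentile 80.7. PSAT1 (chromosome 9, 78297125 to 78330093, forward strand), the aminotransferase of the middle step, had 8.74 log2 CPM or 7873 reads. Only 114 of the ranked genes had a higher level per kilobase of annotated exons than PSAT1, which lay at percentile 99.1. Its percentile was 98.5 with the longest transcript, 97.99 with the canonical transcript and 97.02 with the coding length. PSPH (chromosome 7, 56011051 to 56051604, reverse strand), the phosphatase that releases serine, had 5.79 log2 CPM or 1015 reads, and its level was 19.96 CPM per kilobase.

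PSAT1 was thus 11.2-fold above PHGDH and 9.71-fold above PSPH. These ratios were smaller with the length of the canonical transcript, 2.28 and 6.94, and PSAT1 was above both with every length tried. The order of PHGDH and PSPH depended on the length. PHGDH was at 0.866 of PSPH per kilobase of all annotated exons and at 3.05 of it per kilobase of canonical transcript. PHGDH was also the higher with the longest transcript, at 1.97 of PSPH, and with the longest coding length, at 1.22. Their order was therefore not settled, although only the length over all annotated exons put PSPH higher. The annotation gives PHGDH 9187 bases of exons in all and a canonical transcript of 1866 bases. The exons over which the authors counted reads are not stated.

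The serine hydroxymethyltransferases differed between the compartments. SHMT2 (chromosome 12, 57229573 to 57234935, forward strand), the mitochondrial enzyme, had 7.55 log2 CPM or 3441 reads. SHMT1 (chromosome 17, 18327860 to 18363563, reverse strand), the cytosolic enzyme, had 5.53 log2 CPM or 852 reads. Their levels were 40.7 and 6.60 CPM per kilobase, and SHMT2 was 6.17-fold above SHMT1. SHMT2 remained the higher with every length tried, by 3.26-fold to 6.17-fold.

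The folate dehydrogenases and formate-tetrahydrofolate ligases followed. MTHFD2 (chromosome 2, 74186172 to 74217565, forward strand), the mitochondrial methylenetetrahydrofolate dehydrogenase and cyclohydrolase, had 9.19 log2 CPM, the highest read number of the 9 enzymes. MTHFD1L (chromosome 6, 150865679 to 151101887, forward strand), which releases formate in the mitochondria, had 6.15 log2 CPM or 1304 reads and a level of 14.5 CPM per kilobase. MTHFD1 (chromosome 14, 64388031 to 64463457, forward strand), a single cytosolic protein that carries the dehydrogenase, cyclohydrolase and ligase activities, had 7.34 log2 CPM or 2986 reads and a level of 9.34 CPM per kilobase.

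MTHFD2 was 5.45-fold above MTHFD1 and 3.52-fold above MTHFD1L, the enzyme that acts after it in the mitochondria. With every length tried MTHFD2 stayed the higher, from 2.57-fold to 9.90-fold over MTHFD1 and from 3.52-fold to 23.01-fold over MTHFD1L. The place of MTHFD1L changed with the length. MTHFD1 was at 0.645 of MTHFD1L over all annotated exons, of which MTHFD1 has 17357 bases, and at 2.50 of it over the canonical transcript of 3154 bases. MTHFD1 was also the higher with the longest transcript, at 1.17 of MTHFD1L, and with the longest coding length, at 2.32. With the longest coding length SHMT1, at 32.0 CPM per kilobase, was also above MTHFD1L at 24.1.

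ALDH1L2 (chromosome 12, 105019784 to 105107643, reverse strand), the mitochondrial formyltetrahydrofolate dehydrogenase, which oxidises the formyl group to carbon dioxide with the formation of NADPH, had 5.71 log2 CPM or 961 reads. It had the lowest level of the 9 enzymes with every length tried, from 5.50 to 18.7 CPM per kilobase, and MTHFD2 was 9.26-fold to 29.7-fold above it. Its cytosolic paralogue ALDH1L1 had an implied mean of 0.355 reads per library, which is under the floor of 3 reads.

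**Figure D2:**
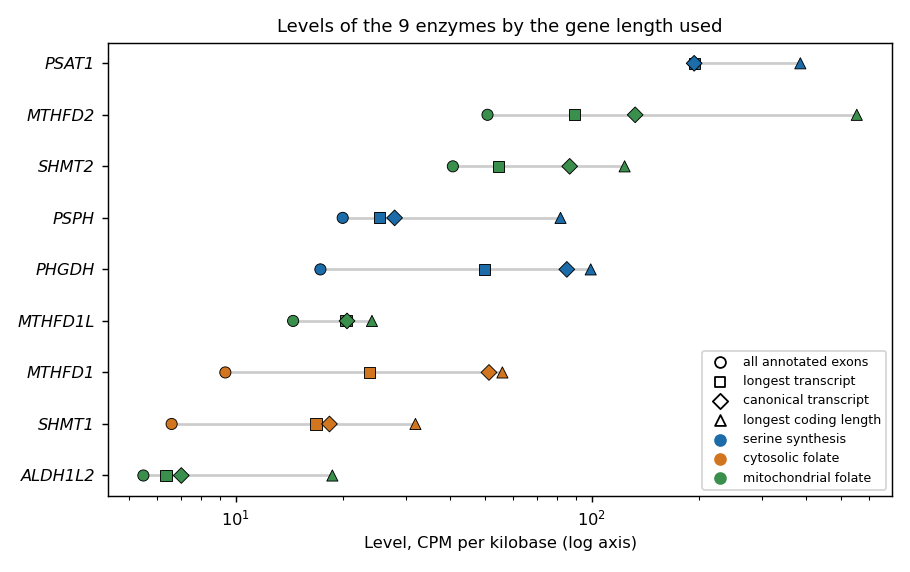
Levels of the 9 enzymes in CPM per kilobase (horizontal log axis), one row per gene, with the colour for the role and the marker shape for the length used: all annotated exons, longest transcript, canonical transcript or longest coding length. PSAT1 and MTHFD2 lie highest and SHMT2 comes next for every shape, ALDH1L2 lies lowest, and the other 5 genes change places between shapes.

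Summed by role, the 3 serine synthesis enzymes held 231 CPM per kilobase, the 4 mitochondrial folate enzymes 112 and the 2 cytosolic folate enzymes 15.9. Of the 231, PSAT1 alone held 194. The order of the first 2 sums turned with the coding length, to 566 and 721, and the cytosolic sum was the lowest with every length tried. The mitochondrial enzymes took 51.2% of the reads of the 9 enzymes, the serine synthesis enzymes 36.8% and the cytosolic folate enzymes 12.0%. Neighbours in the order of levels were 1.16-fold to 3.81-fold apart. The spread between libraries is unknown here, so whether neighbours differ beyond it was not tested. The ratios above are therefore descriptions of the pooled mean, with no test.

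Some reads may be shared with other genes. MTHFD2P1, the one pseudogene of a member in the table, had 6.62 reads, or 0.0617% of the reads of MTHFD2. Reads of PSPH may likewise be split with near-identical copies of that gene. On the opposite strand, exons of SLC4A5 cover 11.6% of the exonic bases of MTHFD2, and smaller stretches of SHMT1, SHMT2, MTHFD1 and ALDH1L2 also overlap exons of other genes. On the same strand, the microRNA gene MIR6778 covers 73 bases of SHMT1, or 1.04% of its exonic bases. The libraries were strand-specific, but the use of strand in counting is not stated.

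The start sites of the enzymes were compared next, because a shared sequence near them was not used to choose the genes. RefSeq windows of GRCh38.p14 from 250 bases before to 50 after a start site were used for PHGDH, PSAT1, SHMT1, MTHFD1, MTHFD2 and MTHFD1L. PSPH, SHMT2 and ALDH1L2 had no window. The RefSeq starts of PHGDH, MTHFD2 and SHMT1 lie inside the gene spans given above, which are those of GENCODE and begin further upstream. CCAAT, the letters of the box bound by the factor NF-Y, was searched on both strands and was found for 6 of these 6 genes and for 39.7% of 27305 genes with a window. For 4 of the 6 it lay on the gene's strand between 90 and 60 bases before the start, against 5.51% of all genes. That range was chosen after the matches were seen, so these shares are a description and not a test. The windows of all genes were also not matched to these for base content or expression. The share of G and C was 52.7% for PHGDH, 62.7% for MTHFD2, 66.0% for PSAT1 and 68.0% for SHMT1. The median of all windows was 58.7%. The box began 71 bases before the start in PHGDH, 74 in MTHFD2, 76 in SHMT1 and 83 in PSAT1. PSAT1 held 3 boxes, at 113, 83 and 52 bases before its start. The 120 bases before those 4 starts are printed to show this shared position, 5′ to 3′ on the gene's strand, with CCAAT in capitals. They are chr1:119711814-119711933 (forward strand) for PHGDH, chr2:74198495-74198614 (forward) for MTHFD2, chr17:18363551-18363670 (reverse) for SHMT1 and chr9:78297005-78297124 (forward) for PSAT1.
PHGDH: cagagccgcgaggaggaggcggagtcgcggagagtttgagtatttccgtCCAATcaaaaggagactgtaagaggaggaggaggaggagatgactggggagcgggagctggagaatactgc
MTHFD2: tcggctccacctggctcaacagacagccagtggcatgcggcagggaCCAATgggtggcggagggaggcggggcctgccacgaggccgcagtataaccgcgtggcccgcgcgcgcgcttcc
SHMT1: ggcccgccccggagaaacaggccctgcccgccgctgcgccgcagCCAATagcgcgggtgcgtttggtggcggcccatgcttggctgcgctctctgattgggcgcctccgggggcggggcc
PSAT1: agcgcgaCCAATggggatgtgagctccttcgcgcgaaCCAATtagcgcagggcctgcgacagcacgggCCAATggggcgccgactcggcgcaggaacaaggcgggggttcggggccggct

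Other motifs were less frequent in these windows. TGATGNAA, the core of the C/EBP-ATF element that the stress factor ATF4 binds, was found on either strand for 1 of the 6 genes, MTHFD1L, and for 4.46% of all genes. CACGTG, the E-box bound by MYC and related factors, was found for 2 of the 6, MTHFD1 and MTHFD1L, and for 8.77% of all genes. MTHFD1L has several start sites, and its overlapping windows show the same match more than once. A match is a description of these letters alone and was not tied to the levels.

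The rest of the pathway was read from a list of 38 genes, of which 31 had at least 10 reads, with a median level of 7.15 CPM per kilobase against 17.3 for the 9 enzymes. Among the other cytosolic folate genes, 7 of 9 had at least 10 reads. ALDH1L1 and FTCD, with 0.355 and 1.07 reads, were both under the floor of 3 reads. All 6 other mitochondrial folate genes had at least 10 reads, from 0.888 CPM per kilobase for MTHFD2L, a paralogue of MTHFD2, to 33.9 for SLC25A32, the mitochondrial folate carrier. With the canonical transcript the ends were SFXN2 at 2.79 and SFXN1, a mitochondrial serine transporter, at 51.6. MTHFD2 was 57.3-fold above MTHFD2L, and 32.7-fold to 66.2-fold above it over the lengths tried. For folate uptake, the reduced folate carrier SLC19A1 was the highest at only 0.550 CPM per kilobase, and FOLR2, a folate receptor, had no read in any library.

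In the glycine cleavage system, which feeds carbon from glycine into the mitochondrial folate pool, 4 of 4 genes had at least 10 reads. DLD, a subunit that other dehydrogenase complexes share, was the highest at 44.7 CPM per kilobase, and AMT, the aminomethyltransferase, the lowest at 0.103. In the methionine cycle 6 of 8 genes had at least 10 reads. MAT2A, the S-adenosylmethionine synthetase of most tissues, reached 124 CPM per kilobase, whereas BHMT, a liver enzyme, had 0.366 reads. Of the genes of transsulfuration and serine use, 4 of 5 had at least 10 reads, led by CTH, the enzyme that forms cysteine, at 10.5 CPM per kilobase, and SDS, a serine dehydratase, was the lowest with 4.98 reads. The formyl-folate enzymes of purine synthesis were both well read, with ATIC at 38.6 and GART at 22.0 CPM per kilobase.

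**Figure D3:**
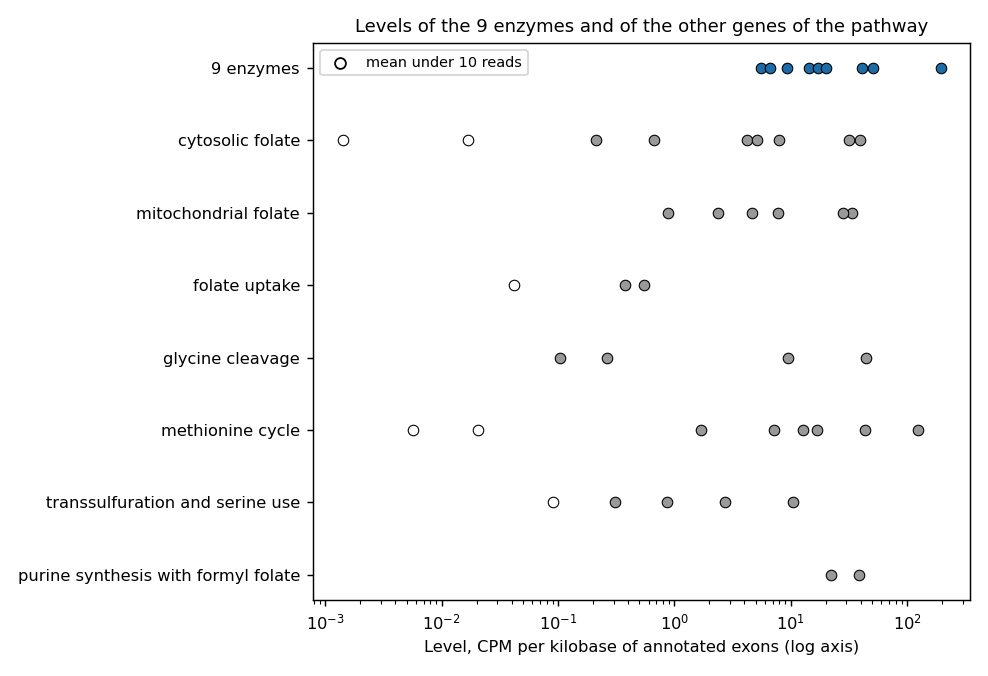
Levels in CPM per kilobase of annotated exons (horizontal log axis) of the 9 enzymes and of the 37 other pathway genes with a read, one point per gene and one row per class, with open points for genes with a mean under 10 reads. The 9 enzymes lie between 5.50 and 194, while the other classes hold genes with lower levels as well, except the purine synthesis genes at 22.0 and 38.6.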

How the data were processed

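RNA from A375 cells (3 OLO and 3 OZO libraries) was sequenced in paired-end mode. According to the methods and the submitters' processing notes, the authors aligned reads to hg38 with HISAT2 2.1.0, counted them per gene with featureCounts 2.1.1 and ran limma-voom 3.58.1. The normalization factors, the annotation, any filter and the use of strand are not given in the sources used here.

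The deposited table holds, for each gene, the authors' mean log2 CPM over all libraries, with voom's 0.5 added to each count. Its other columns hold the authors' own comparison of treated with control cells (log fold change, moderated statistic, p-values and log odds) and were not used, so no test between OZO and OLO was made.

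The lowest mean is that of genes with no read. The means above it, as distances from it multiplied by the 6 libraries, are then logarithms of odd products. Of 13414 genes whose product was under 1000000, 100% were on an odd whole number. That number includes the 7012 genes with no read, which are odd by construction and so check nothing. The tolerance was 0.001 up to a product of 1000 and grew in proportion above it, so it was loose for the largest products. Mean reads follow from the distance to the lowest value, less the 0.5. They are geometric means, and the depth of each library is unknown. The step was tested on simulated data. Exon, transcript and coding lengths are those of GENCODE 44 (hg38), matched by Ensembl identifier for 25497 genes and for 96.7% of those with at least 10 reads. Python 3.11.15, pandas 2.3.3 and numpy 2.4.6 were used. Percentiles give the share of ranked genes with a lower level.

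The members, lists and alternatives were chosen with earlier results of these data known. Named genes are all members, the highest and lowest gene of each pathway class, ALDH1L1, MTHFD2L, genes with no read and pseudogenes of members. One item that this rule would name is not reported here. Markers of cell types were chosen likewise.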

Additional observations from a re-analysis of the deposited data

How the results depend on the processing

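No paired analysis was possible because the deposited values used here are means over all libraries. For the same reason the fit of OZO against OLO, leaving out each replicate and other filters or pseudocounts per library were not run. A difference from the main value was judged against counting error alone, taken from the mean reads as for 1 library. The counting error of a mean over 6 libraries is smaller. The median level of the 9 enzymes, 17.3 CPM per kilobase over all annotated exons, was 25.3 with the longest transcript, 81.7 with the longest coding length and 51.4 with the canonical transcript, a length chosen after the data were seen. Their median percentile, 80.7, was 87.0 among all genes with a read, 80.1 among protein-coding genes, 81.7 with the longest transcript, 82.9 with the coding length, 89.5 with no length and 90.01 with the canonical transcript. With the longest transcript, the coding length and the canonical transcript in turn, SHMT2 over SHMT1 (6.17) was 3.26, 3.87 and 4.73, and MTHFD1 over MTHFD2 (0.183) was 0.266, 0.101 and 0.388. In the same order MTHFD1 over MTHFD1L (0.645) reversed to 1.17, 2.32 and 2.50, and PHGDH over PSPH (0.866) reversed to 1.97, 1.22 and 3.05. By construction only the length differs between these values. PSAT1 ranked above MTHFD2 except with the coding length and with no length, where MTHFD2 was the higher. Keeping the 0.5 moved no member's level by more than counting error, and 9 of 9 members had at least 100 reads.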
